A study of Canis lupus familiaris with 30 samples.

Results

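The genes described here are those whose median level in cancer-associated stroma (CAS) of canine simple mammary carcinoma (mCA) was at least 4 times that of normal stroma. Levels were expressed as CPM, the count of a gene per 1000000 counts of its library. The genes were selected on these measured levels alone. A gene belonged to the set if its median over the 15 CAS libraries was at least 20 CPM and at least 4 times the median over 13 normal stroma libraries plus 1 CPM. The normal stroma libraries of dogs 128 and 136, which hold only 29284 and 32528 counts, were not used for the selection. Of the 18582 genes in the table, 112 met these thresholds, 5 of them were set aside by name, and the remaining 107 are the set. Because CAS and normal stroma were compared to choose these genes, their difference between the stromas is given as a description, and the results turn on how the genes varied among the dogs.

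Stroma had been cut by laser-capture microdissection (LCM) from formalin-fixed, paraffin-embedded tumours of 15 female dogs, and each dog gave 1 library of either stroma. The text of the study names no drug treatment of the dogs. The dogs were between 4 and 14 years old and the blocks between 3 and 27 months. The labels describe 6 dogs as neutered and give no such remark for the other 9, and they name the carcinoma tubular in 8 dogs, tubulo-papillary in 3, cystic-papillary in 2, tubular-solid in 1 and cribriform in 1. Normal stroma came from the same slides, so that it is tissue of a tumour-bearing gland and not of a healthy animal.

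Stroma is the supporting tissue between epithelial structures and consists of fibroblasts, vessels, immune cells and the extracellular matrix that these cells deposit. In carcinomas, fibroblasts often take on a contractile, matrix-producing state, and immune cells and vessels accumulate to a varying extent from tumour to tumour. Genes that are abundant in CAS can therefore belong to several cell types, and genes that are made by the same cells tend to move together from one tumour to the next. In such bulk samples, more cells of a type and more RNA per cell cannot be told apart. The table lists genes by Ensembl dog gene ID and does not pair these with gene names. Hence neither the roles of the 107 genes nor the identity of the stroma could be checked against marker genes, and only the pair of genes with the highest ratios is given by ID.

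Libraries of CAS held between 1361951 and 5572761 counts, and those of normal stroma other than dogs 128 and 136 between 617177 and 3932370. All 107 genes passed the filter on low counts. In CAS, between 97 and 107 of the 107 genes had at least 10 counts in a library, compared to between 27 and 98 in the 13 normal stroma libraries, where the lowest number belonged to the shallowest library. There were 67 genes with no count in at least 1 of the 13 normal stroma libraries and 9 with no count in at least 1 CAS library.

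The set was uneven in abundance and in the size of its ratio. Medians in CAS extended from 20.02 to 7599 CPM, with 43 genes at 100 CPM or more and 30 below 40 CPM. Medians in normal stroma extended from 0.254 to 1325 CPM. The ratio of the medians, with 1 CPM added to that of normal stroma, was between 4.05 and 206 with a median of 5.74. It was 10 or more for 19 genes, from 5 to below 10 for 53 and below 5 for 35. The 3 genes just inside the ratio threshold had ratios of 4.05, 4.05 and 4.08, and the 3 just outside had 3.99, 3.94 and 3.90. At the abundance threshold, the nearest genes inside had medians of 20.02, 21.5 and 21.6 CPM in CAS and the nearest outside 19.9, 18.4 and 18.0 CPM, so both borders run through a continuum.

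Together, the 107 genes took between 1.79% and 4.57% of the counts of a CAS library, with a median of 2.94%. In the 13 normal stroma libraries they took between 0.277% and 1.01%, with a median of 0.595%. The groups did not overlap, which the selection favours. Within a dog, the share in CAS was between 2.92 times (dog 130) and 11.5 times (dog 109) that in normal stroma. Much of this came from few genes, since the 10 most abundant of the set in a library held a median of 66.0% of its counts in CAS and 67.6% in normal stroma. The normal stroma libraries that the selection did not use can be read separately. There, the genes took 1.08% of the counts in dog 128 (exact binomial 95% interval 0.967 to 1.21, counting error only) and 0.643% in dog 136 (0.559 to 0.735). The CAS libraries of the same dogs had 4.02% and 2.62%, so that both unused libraries lay below their CAS. The selection did use these CAS libraries, so only the normal stroma side of this comparison is apart from it. Dog 136 lay within the range of the 13 normal stroma libraries and dog 128 just above it. At this depth 51 and 46 of the 107 genes had at least 1 count, and single genes cannot be judged in them.

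**Figure D1:**
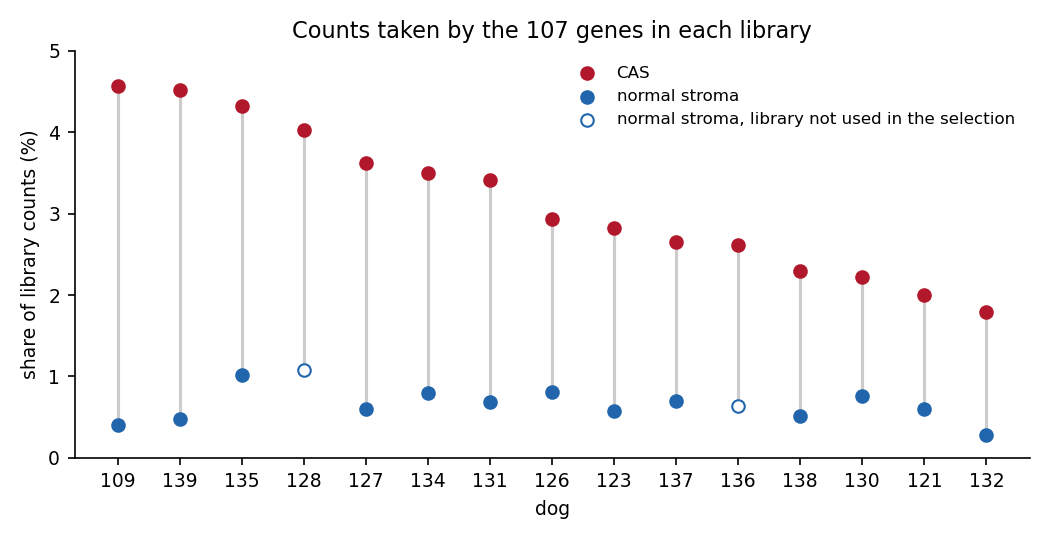
Share of all counts of a library (percent, vertical axis) taken by the 107 genes in each of 15 dogs (horizontal axis, ordered by the share in CAS). Red points are CAS, blue points normal stroma and open points the normal stroma libraries that the selection did not use; CAS lies between 1.79% and 4.57% and all but 2 normal stroma libraries lie below 1%.

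The direction was not the same in every dog for every gene. In the 13 dogs with both libraries used, 57 of the 107 genes were higher in CAS than in the matched normal stroma in all 13 dogs, 81 in at least 12 and 98 in at least 11. The weakest gene was higher in 7 of 13. Over all genes with a count, 1.52% were higher in CAS in all 13 dogs. The shares of all genes for at least 12 or 11 dogs were not taken, so those counts have no background. For 7 genes the lowest CAS library lay above the highest of the 13 normal stroma libraries, compared to 0.103% of all genes. With 6 surrogate variables and all 30 libraries in the quasi-likelihood model of edgeR, 67 of the 107 genes were called higher in CAS at a false discovery rate (FDR) below 0.01 and a fold change above 2, beside 2.55% of all genes tested. These counts come from the contrast that chose the genes, and nothing more is read from them. All 107 fitted log2 fold changes were above 0, with a median of 2.45 compared to 0.22 over all genes tested, and the lowest was 0.05.

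ENSCAFG00000008353 had the highest ratio of the set. It had a lowest value of 4.18 CPM, a median of 471 CPM and a highest value of 2086 CPM in CAS. In the 13 normal stroma libraries it lay between 0 and 38.9 CPM with a median of 1.28 CPM, and 5 of these libraries had no count, which allows up to between 1.02 and 4.86 CPM (3 counts) in them. CAS was thus high in 14 dogs and low in dog 137, where 11 counts gave 4.18 CPM and the normal stroma had 3.66 CPM. In normal stroma only dog 135 stood out, with 153 counts. The fitted log2 fold change was 6.73 (SE 0.952).

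ENSCAFG00000028626, with the second highest ratio, behaved differently. Its median was 117 CPM in CAS, but single dogs lay between 0 CPM (dog 132) and 768 CPM (dog 135). In normal stroma, 6 of the 13 libraries had no count, whereas dog 137 had 277 CPM and dog 135 had 89.5 CPM. The groups overlapped, and the median of 0.678 CPM in normal stroma rests on 2 counts in 1 library. Its log2 fold change was 1.797 (SE 1.005) with surrogate variables, and 3.83 when dogs 128 and 136 gave no normal stroma library to this fit, and neither was among the calls. It was 4.39 in the fit with a replicate block for the dog and no surrogate variables, which called it.

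**Figure D2:**
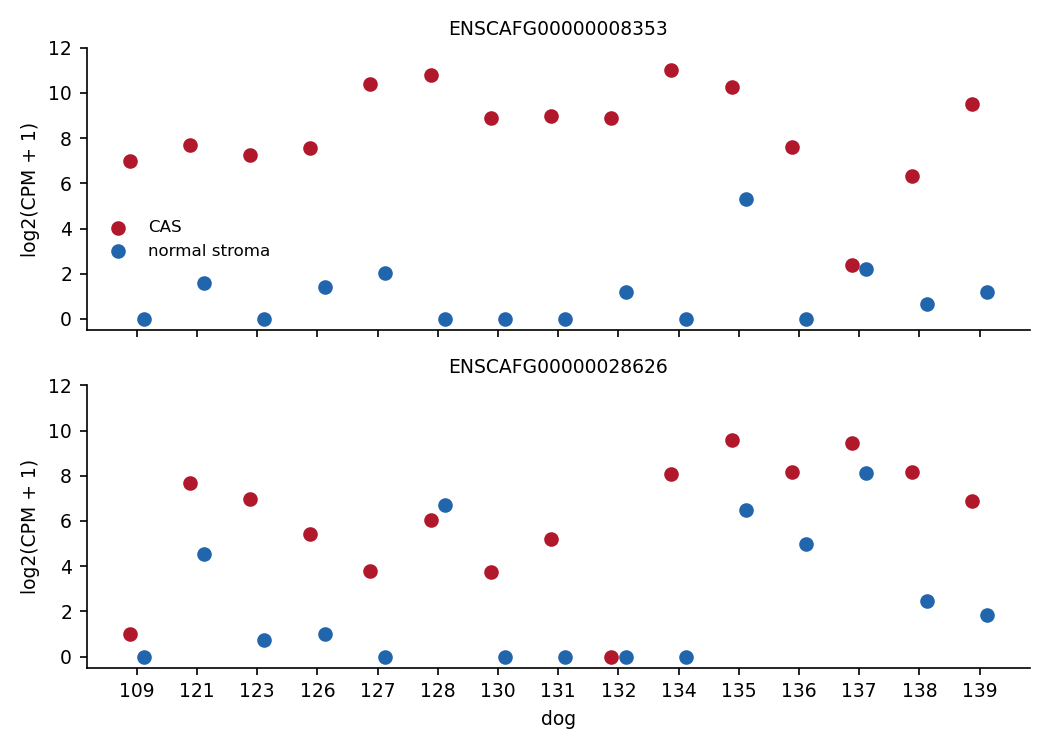
Levels of both named genes, ENSCAFG00000008353 (top) and ENSCAFG00000028626 (bottom), in each of 15 dogs (horizontal axis) as log2(CPM + 1) (vertical axis). Red points are CAS and blue points normal stroma; the first gene is low in the CAS of dog 137 (4.18 CPM), and the second gene is high in both stromas of dogs 135 and 137.

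Between dogs, the level of ENSCAFG00000028626 in CAS went with that in normal stroma by Pearson's r, while Spearman's rho did not pass the adjustment. Pearson's r of log2 CPM was 0.69 over 13 dogs (two-sided permutation test, p = 0.00090, adjusted p = 0.0090 over 10 relations). Spearman's rho was 0.75 (permutation p = 0.00528, adjusted p = 0.0528). In normal stroma 6 of the 13 libraries had no count. Of the 13, only dogs 121, 135 and 137 exceeded the 4.51 CPM of dog 138, so the relation rests on few dogs. Without the 2 dogs farthest from the median in normal stroma r was 0.53 (permutation p = 0.0460), so part of the relation rests on them. For ENSCAFG00000008353 the same relation had an r of 0.06 (permutation p = 0.910, adjusted p = 0.961) and a rho of 0.01 (permutation p = 0.985). Between the first and the second gene, the 15 CAS libraries gave r = -0.20 (permutation p = 0.479) and rho = -0.08 (permutation p = 0.765). In normal stroma the corresponding values were r = 0.72 (permutation p = 0.0123, adjusted p = 0.0617) and rho = 0.67 (permutation p = 0.0168, adjusted p = 0.0840), and without 2 dogs r was 0.58 (permutation p = 0.0483). That relation did not pass the adjustment. No relation of either gene to the age of the dog, the age of the block or the log2 total of the library in CAS passed, with adjusted permutation p of 0.961 for each Pearson's r and 0.985 for each Spearman's rho.

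The 107 genes differed strongly from dog to dog within CAS. The SD of a gene over the 15 CAS libraries, on the scale of log2 CPM after TMM normalisation, had a median of 1.14. It was 0.62 over all 10472 genes tested and 0.47 over the 5142 of these with a median of at least 20 CPM in CAS. Of the 107 genes, 53 (49.5%) lay among the 10% of all genes tested with the highest SD and 77 (72.0%) among the highest 10% of those above 20 CPM. For 20 genes, the highest CAS library exceeded the lowest at least 100-fold or the lowest had no count. At the other end, the steadiest of the 7 genes that separated the stromas without overlap had an SD of 0.42, with 24.9 to 83.0 CPM in CAS and 0 to 22.0 CPM in normal stroma.

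Co-variation was measured as Pearson's r of log2 CPM between 2 genes across the 15 CAS libraries and is given as a description without a test. The 5671 pairs of the 107 genes had a median r of 0.06, close to the 0.00 of all pairs of genes tested. Their spread was wider, with 16.7% of pairs above 0.5 and 8.89% below -0.5, compared to 5.46% and 4.80% of all pairs. Among all pairs of genes above 20 CPM the corresponding shares were 5.54% and 5.15%. The first principal component of the 107 genes, each scaled to unit variance, held 35.8% of their variance in CAS, whereas that of all genes tested held 14.9%. A gene of the set had a median of 14 partners within the set at r above 0.5, at most 45, and 1 gene had none. The set therefore held both genes that moved together and genes that moved in opposite directions from dog to dog, which the median r does not show.

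**Figure D3:**
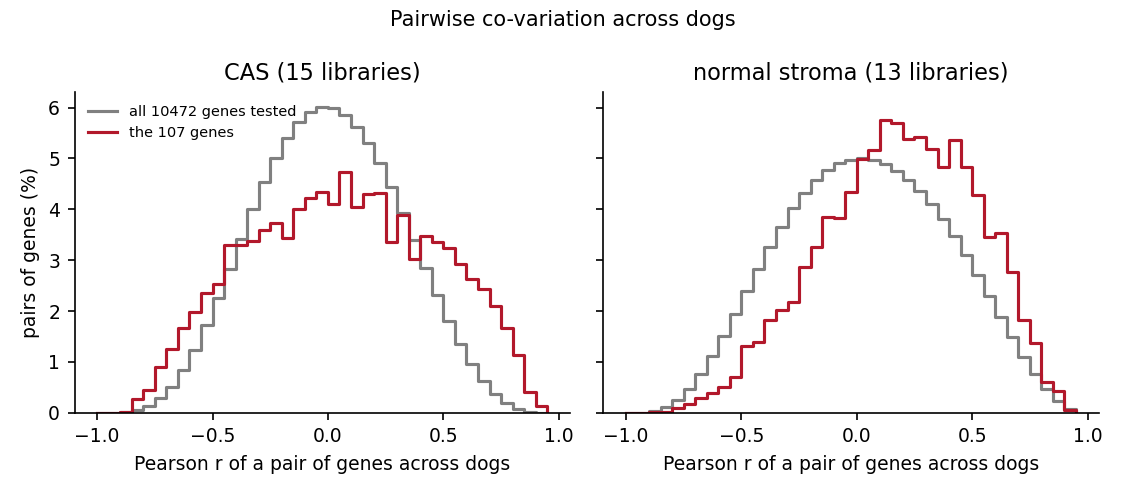
Distribution of Pearson's r over pairs of genes (percent of pairs, vertical axis; r across dogs, horizontal axis) in 15 CAS libraries (left) and 13 normal stroma libraries (right). Red lines are the 107 genes and grey lines all 10472 genes tested; in CAS the red line is wider on both sides, and in normal stroma it is shifted to the right, with a median of 0.19 compared to 0.04.

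In the 13 normal stroma libraries the pattern was different. There the median r over pairs of the 107 genes was 0.19, against 0.04 over all pairs, with 18.3% of pairs above 0.5 and 2.19% below -0.5 (11.0% and 6.24% of all pairs). With the log2 total of the library regressed out of every gene, the median r of the 107 genes in normal stroma was 0.09. Without dog 131, which had the shallowest of the 13 libraries, it was 0.12.

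Average linkage of the 107 genes by r in CAS, ended at a mean r of 0.5, gave 27 clusters, of which 4 had at least 5 genes. These are called A (40 genes), B (12 genes), C (5 genes) and D (5 genes). The remaining 45 genes lay in clusters of at most 4 genes, 9 of them alone. As clusters were formed from these r values, the r within a cluster is no finding in itself. Membership also depended on single dogs: when each dog was left out in turn, between 22 (without dog 127) and 40 of the genes of cluster A stayed in 1 cluster, and between 7 (without dog 135) and 12 of cluster B. The number of clusters with at least 5 genes was then between 2 (without dog 109, and without dog 128) and 6 (without dog 123). In every one of these 15 repeats, 0 genes of cluster B fell in the cluster that held most of cluster A. The repeats share most of their libraries with the first clustering, so this is no independent support for the division.

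**Figure D4:**
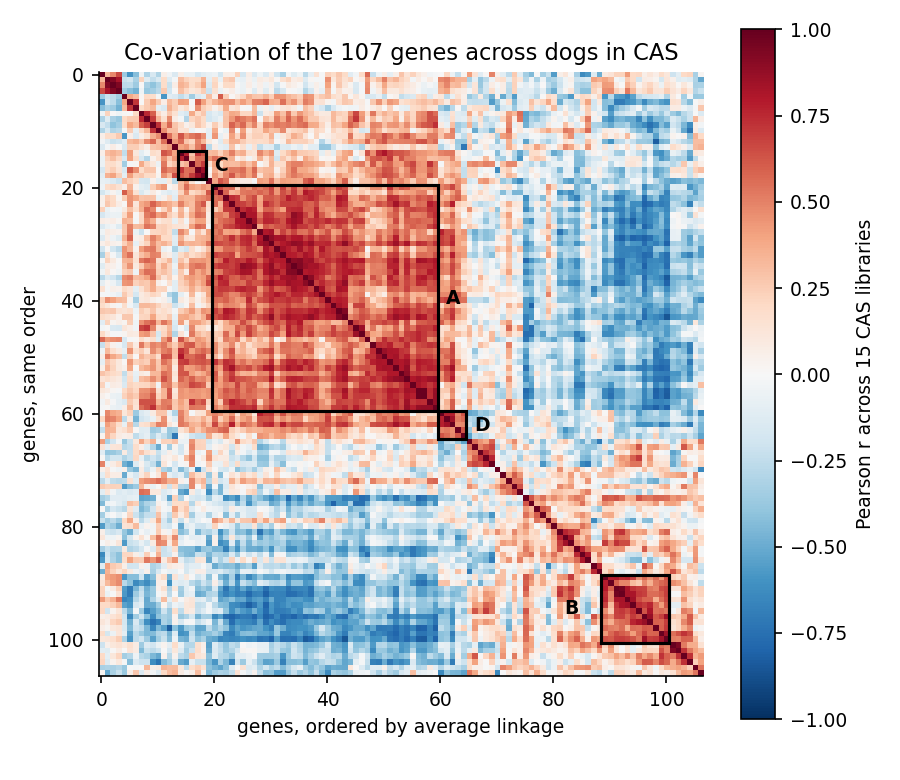
Pearson's r between all pairs of the 107 genes across 15 CAS libraries (colour, from -1 in blue to 1 in red), with the genes in the order of average linkage on both axes. Black squares mark clusters A (40 genes), B (12), C (5) and D (5); the blocks between A and B are blue, with a median r of -0.54.

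Cluster A held the abundant part of the set. It included 9 of its 10 most abundant genes, among them the most abundant, with a median of 7599 CPM (from 1889 to 15991 CPM) in CAS and of 1325 CPM in normal stroma. Its median level in CAS was 147 CPM and its median ratio 5.37. ENSCAFG00000008353 belonged to it and had an r of 0.72 with the mean of the other 39 genes, while single genes of the cluster had between 0.54 and 0.94. The cluster took between 0.952% (dog 137) and 3.92% (dog 109) of a CAS library and, without overlap, between 0.188% and 0.676% of the 13 from normal stroma. Of its 40 genes, 32 were higher in CAS in all 13 dogs (1.52% of all genes) and 36 were among the 67 calls (2.55% of all genes tested), from which, as above, nothing is read.

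The mean level of cluster A, as the deviation of each gene from its own mean over the CAS libraries, was lowest in dog 137 at -1.70 (log2 CPM), followed by dog 123 at -1.23 and dog 121 at -0.92. It was highest in dog 131 at 1.10 and dog 109 at 1.07. In dog 137 0 of the 40 genes were above their own mean, in dog 127 all 40 were, and in dogs 109 and 131 it was 39. Such a common direction follows from how the cluster was formed. Even in dog 137 its mean level in CAS was 1.39 above that of the matched normal stroma on the log2 scale. In dog 131, the highest of the 13 dogs on this scale, it was 4.65 above, but its normal stroma library was the shallowest of the 13. By share of counts, cluster A took 2.93% in CAS and 0.643% in normal stroma in dog 131. In dog 109 it took 3.92% and 0.261%, so the order of the dogs depended on the scale.

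Cluster B was less abundant, with a median level of 63.7 CPM in CAS, and spread more widely. The SD of its genes in CAS had a median of 1.78 on the log2 scale, compared to 1.01 in cluster A. Its mean level was lowest in dog 109 at -3.18, dog 135 at -2.70 and dog 131 at -1.67, and highest in dog 137 at 1.94 and dog 123 at 1.802. In dogs 109 and 135 0 of the 12 genes were above their own mean, whereas in dogs 123, 136 and 137 all 12 were. It took between 0.00807% (dog 109) and 0.646% (dog 123) of a CAS library and between 0.00243% and 0.0925% of one from normal stroma, so the groups overlapped. In dogs 109 and 135 the direction depended on the scale. By mean log2 CPM, cluster B was 1.11 higher in CAS in dog 109 and 0.33 lower in CAS in dog 135. By share of counts, it had 0.00807% in CAS and 0.0114% in normal stroma in dog 109, and 0.0323% and 0.0221% in dog 135. In the other 11 dogs it was higher in CAS on both scales. Of its 12 genes, 3 were higher in CAS in all 13 dogs, as were 1.52% of all genes. The calls depended on the fit: 2 of the 12 genes were called with 6 surrogate variables, where 2.55% of all genes tested were called. Without surrogate variables 6 were called, where 258 of the 10472 genes tested were. A replicate block for the dog in place of the surrogate variables called 8 (2.88% of all genes tested), and 9 were called with surrogate variables but without the normal stroma libraries of dogs 128 and 136 (2.49%).

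Clusters A and B opposed each other across the dogs. Of the 480 pairs of 1 gene from each, 99.6% had a negative r in CAS, with a median of -0.54 and a range from -0.86 to 0.06. Dogs 137, 123, 121 and 138, which had the lowest means of cluster A, all lay above 0.7 in cluster B, and dogs 131 and 109, highest in cluster A, had the third lowest and the lowest mean of cluster B. The clustering groups genes of high r and does not itself require a negative r between clusters. With both clusters kept as formed from all dogs, the median was between -0.59 and -0.49 when each dog was left out in turn. It was -0.56 without dogs 109 and 135 together. The clusters were not formed anew for these values, and the libraries are shared, so they are no independent support. With CPM from the library total in place of TMM normalisation the median was -0.42. In the 13 normal stroma libraries, which had no part in forming the clusters, the median r between the clusters was 0.01 and 49.2% of the pairs were negative. It was -0.13 with the log2 total of the library regressed out and -0.15 without dog 131. The difference between the stromas in this respect was not tested.

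**Figure D5:**
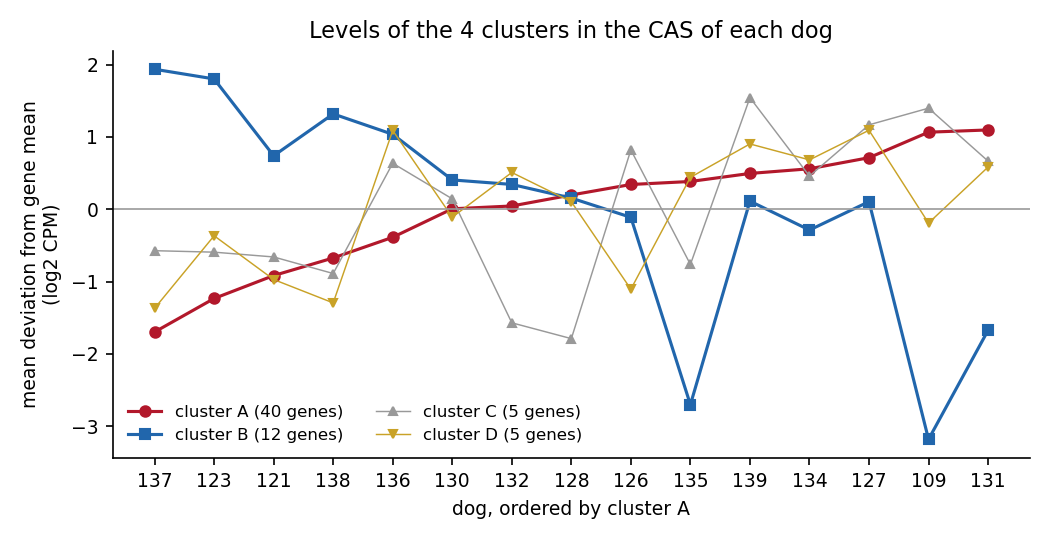
Mean deviation of the genes of each cluster from their own means over 15 CAS libraries (log2 CPM, vertical axis) in each dog (horizontal axis, ordered by cluster A). Cluster A goes from -1.70 in dog 137 to 1.10 in dog 131, while cluster B goes from 1.94 in dog 137 to -3.18 in dog 109 and -1.67 in dog 131.

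The r within each cluster was also taken in normal stroma, whose libraries did not form the clusters. Within cluster A the median r over the 13 normal stroma libraries was 0.30, with 79.0% of pairs positive. Within cluster B it was 0.41, with 84.8% of pairs positive. Clusters C and D had medians of 0.18 and 0.20, close to the 0.19 of the whole set, with 50% and 80% of pairs positive. The 45 genes outside the clusters had a median of 0.27 and all pairs of genes tested 0.04. The medians of the whole set and of all genes tested were positive, so most of their pairs were positive too. With the log2 total of the library regressed out, the values were 0.24 for cluster A, 0.38 for B, -0.0080 for C, 0.0089 for D, 0.19 for the 45 other genes and 0.09 for the whole set. In the difference between CAS and normal stroma of the same dog, the median r within clusters A to D was 0.40, 0.26, 0.27 and 0.42, and between A and B it was 0.13. The opposition of clusters A and B was thus seen in CAS, while their median r in these differences was not negative. The differences also carry the depth of the normal stroma libraries. In those libraries, the median r between A and B was 0.01, and -0.13 with the log2 total regressed out. The r of the differences was not taken with the total regressed out or with single dogs left out. An absence of the opposition within dogs was therefore not tested.

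The level of a cluster in a dog's CAS was also compared with that in its normal stroma. Across the 13 dogs, the mean level of cluster B in CAS had an r of 0.70 with its mean level in normal stroma. With the genes of the cluster kept, this r was between 0.62 and 0.81 when single dogs were left out. For cluster A this r was 0.27, for C 0.16 and for D -0.31, and for these 3 clusters single dogs were not left out. Among single genes, 11 of 12 in cluster B and 27 of 40 in cluster A had a positive r between the stromas, with medians of 0.40 and 0.20. This r was positive for 63.7% of all genes tested and 67.1% of those above 20 CPM, so cluster A was near that background. ENSCAFG00000028626, which lay outside the clusters, had an r of 0.69. Over the whole set the median r between the stromas was 0.25, compared to 0.12 over all genes tested. Whether the clusters differ in this was not tested.

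Clusters C and D were small and went with cluster A more than with cluster B. The median r in CAS was 0.39 between A and C, 0.41 between A and D, -0.23 between B and C and -0.32 between B and D. Cluster C was highest in dog 139 at 1.54 and dog 109 at 1.40 and lowest in dog 128 at -1.79 and dog 132 at -1.57. Cluster D was highest in dogs 127 and 136, both at 1.09, and lowest in dog 137 at -1.37 and dog 138 at -1.29. Of the 45 genes outside the 4 clusters, 18 were higher in CAS in all 13 dogs (1.52% of all genes). With surrogate variables 21 were called (2.55% of all genes tested), without them 29 (258 of 10472 genes), and with the block in their place 34 (2.88%). These counts again come from the contrast that chose the genes. The 45 genes had a median level of 46.2 CPM in CAS. Among them, 1 gene had an r above 0.5 with the mean of cluster A and 5 had one below -0.5, while 3 were above 0.5 with cluster B and 4 below -0.5. ENSCAFG00000028626 was one of these 45, with an r of -0.41 to cluster A and 0.25 to cluster B.

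Single pairs were closer still. The highest r in CAS was 0.99, between 2 genes of cluster A, and it was 0.95 in normal stroma. The next was 0.96 between 2 genes of cluster B, with 0.88 in normal stroma. A pair outside the 4 clusters came after these with 0.94 in CAS but 0.25 in normal stroma. These counts are estimates that divide reads between near-identical transcripts, and the similarity of these genes in sequence was not examined. The lowest r, -0.86, -0.84 and -0.83, were all between a gene of cluster B and genes of cluster A, and the same gene of cluster B took part in each.

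A few dogs supplied many of the extremes. Dog 137 had the lowest CAS level for 26 of the 107 genes (24.3%), while 6.99% of all genes tested were lowest there. Dog 135 followed with 13 (12.1%, compared to 4.93%). The highest level was found in dog 109 for 18 genes and in dog 131 for another 18 (16.8% each, compared to 4.79% and 5.22%), and in dog 137 for 14 (13.1%, compared to 8.27%). Dog 137 was therefore at both ends, low for cluster A and high for cluster B.

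Depth and composition of the libraries were set beside these patterns. Across the 15 CAS libraries, the mean level of cluster A had an r of 0.15 with the log2 total, -0.27 with the number of genes with at least 10 counts and 0.51 with the share of the most abundant gene of the library. For cluster B the values were -0.23, 0.13 and -0.36. With the log2 total regressed out, the median r between clusters A and B was -0.54, and with the share of the most abundant gene regressed out it was -0.50. The labels name no batch of sequencing or extraction.

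The labels of the dogs were then compared with the levels of the 107 genes within CAS, which the selection had not used. In edgeR's quasi-likelihood test over the 15 CAS libraries, adjusted over all genes tested, 0 of the 107 genes differed between 6 neutered dogs and the other 9 at an FDR below 0.05, with 0% of all genes called. Without adjustment 3 genes had p below 0.05 (2.80%, compared to 4.79% of all genes), and DESeq2 also called 0. Between tubular carcinoma and other subtypes, 0 of the 107 genes passed either test (0% of all genes in edgeR), with 7 genes at an unadjusted p below 0.05 (6.54%, compared to 3.28%). For the age of the dog, 0 passed either test (0% of all genes in edgeR) and 1 gene had an unadjusted p below 0.05 (0.935%, compared to 2.02%).

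The cluster means overlapped widely between these groups. Cluster A lay between -1.70 and 0.71 in dogs with tubular carcinoma and between -0.92 and 1.10 in the others, and between -1.70 and 1.10 in neutered dogs and -1.23 and 0.71 in the rest. Cluster B lay between -2.70 and 1.94 in tubular carcinoma and between -3.18 and 1.32 in the others. The share of counts of all 107 genes was between 1.79% and 4.32% in tubular carcinoma and between 2.004% and 4.57% in the others.

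By the lowest FDR of the 107 genes in edgeR, the age of the block came closest to a difference. That FDR was 0.117, and the next lowest was 0.781 for neutering. In edgeR 0 of the 107 genes and 0% of all genes passed an FDR of 0.05. However, 17 of the 107 genes (15.9%) had an unadjusted p below 0.05, compared to 8.77% of all genes, 14 of them higher and 3 lower in older blocks. Of these 17, 7 belonged to cluster A, 1 to B, 2 to C and 3 to D. Genes of a cluster vary together across the same libraries, so these counts are not of independent genes. In DESeq2, 3 of the 107 genes passed the adjustment, where 0.428% of all genes did. The fitted change per month had a median of 0.01 on the log2 scale over the 107 genes, compared to -0.0033 over all genes tested. The mean levels of clusters A to D had an r of 0.24, 0.06, 0.49 and 0.45 with the age of the block.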

How the data were processed

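RNA from LCM isolates of CAS and normal stroma of 15 dogs had been sequenced as stranded total RNA. The authors quantified reads with kallisto 0.44.0 against Ensembl transcripts of CanFam3.1 and summed them per gene with tximport, and the deposited estimated counts are not normalised and are whole numbers. Reads of near-identical genes are divided by that quantification. Of the gene IDs, 0 matched the reference table used for names.

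The genes and tests were chosen with earlier results of these data known. Genes named by ID are the 2 with the highest ratio, because no table paired IDs with symbols, and the marker lists prepared by symbol were not used here. Counts were filtered with filterByExpr, which kept 10472 of 18460 genes with a count, and TMM-normalised in edgeR 4.0.16 (R 4.3.3). The contrast of the stromas used the quasi-likelihood model (glmQLFit) and 6 surrogate variables from svaseq (sva 3.50.0), as the study's methods name such covariates. Within CAS, each label was fitted alone in the 15 libraries. DESeq2 1.42.0 was an alternative. The log2 CPM used a prior count of 2. Correlations of the named genes were tested with 100000 permutations (scipy 1.17.1), two-sided. Leaving out dogs, other scalings, Spearman's rho and regressing out depth were further alternatives. Simulated data, without pairing by dog, were used to test only the edgeR fits without surrogate variables and the clustering.

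CAS and normal stroma pair by animal. Deviations from group means correlated within dogs with a mean r of 0.13, above 0.1 in 8 of 15 dogs. Each dog gave 1 library per stroma, so the spread between libraries includes that between animals. Total counts per library limit the precision for genes of low level.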

Additional observations from a re-analysis of the deposited data

Results flagged for a closer look

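In 32 groups of 6 to 9 dogs, divided by neutering or by subtype, the gap of the most extreme dog to its neighbour was set against the whole range. This gap was large in 5 groups, and about 1.6 would be so by chance. Both divisions consist of the same 15 dogs and are thus not independent.

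The mean log2 CPM of cluster B in CAS was 3.14 in dog 135, with the nearest value at 5.55 among the 9 dogs without a remark on neutering and at 5.73 among the 8 dogs with tubular carcinoma. ENSCAFG00000008353 had a log2 CPM of 2.13 in the CAS of dog 137, far below 7.22 in the nearest of the 6 neutered dogs and 6.65 in the nearest of the 8 dogs with tubular carcinoma. ENSCAFG00000028626 had a log2 CPM of 0.96 in the CAS of dog 109, compared to 5.81 in the nearest of the 7 dogs with another subtype.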

How the results depend on the processing

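The number of genes meeting the selection was 85 with TMM-scaled totals, 129 without the most abundant gene in the total and 111 with all 15 normal stroma libraries, of which 80, 104 and 98 were shared with the 107. With the dog as a replicate block in place of the surrogate variables, 91 of the 107 genes and 302 of all genes were called higher in CAS, and without either 81 and 258. The other fits called between 67 and 83 of the 107 and between 265 and 345 of all genes, with between 10472 and 18460 genes tested. From 2 calls with surrogate variables, cluster B went to 6 without them and to 8 with the block in their place. The genes outside the clusters went from 21 to 29 and 34. Over all genes, the calls of these fits were 267, 258 and 302. The median r of the 107 genes in CAS was between 0.05 and 0.08 in all alternatives. In normal stroma it was 0.0856 with the log2 total regressed out and between 0.12 and 0.22 in the other alternatives and with dogs left out, lowest without dog 131. In cluster C it was -0.00799 with the log2 total regressed out. The median r between clusters A and B in CAS was -0.416 with CPM from the library total. The cause of these shifts was not tested. Between 3 and 6 clusters had at least 5 genes under other limits on r or Spearman's rho, and 22 of 40 and 7 of 12 genes of clusters A and B stayed together at a mean r of 0.6. For the age of the block, DESeq2 called 3 of the 107 genes, and edgeR 0 under its other settings. The alternatives for the opposition of clusters A and B, for the r of cluster B between stromas and for single clusters were chosen after seeing the data. Between 617177 and 3932370 counts per normal stroma library limit what can be said of genes near 1 CPM there.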

Other observations

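Genes outside the 107 were also compared with the clusters. Of the other genes tested, 290 (2.80%) had an r above 0.7 with the mean level of cluster A across the 15 CAS libraries and 168 (1.62%) an r below -0.7. For cluster B, 99 genes (0.955%) were above 0.7 and 117 (1.13%) below -0.7. Cluster D, with 5 genes, had 155 such genes above 0.7 (1.495%) and cluster C 61 (0.589%). Among all pairs of single genes, 0.691% were above 0.7 and 0.473% below -0.7, so the shares above 0.7 for clusters B and C are near that background, which is of single genes and not of means. These are descriptions across genes that share libraries, and genes are not independent replicates.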
